A study of Homo sapiens with 9 samples.

Results

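The genes described here are 32 genes of sterol and fatty acid synthesis and of its control. They are given by name: each is a listed symbol of the deposited gene table, with the row of the larger summed count taken where a symbol stood on 2 rows (CYP51A1 and EBP), and they make up 32 of the 20323 genes of that table. The RNA came from HKC-8, a human line grown from kidney proximal tubular epithelium. The series holds 9 libraries in 3 groups of 3. Wnt1_KP6 cells received a Wnt1 plasmid (p-Wnt-1) and KP6, a peptide derived from the kidney protein Klotho. Wnt1 cells received the Wnt1 plasmid without KP6, and control cells received the empty vector pcDNA3. All libraries share the cell line and 1 batch label, and the labels used here give no dose, duration or transfection rate. Nor do the labels tie replicates to separate cultures: a p-value here gauges only how far these libraries spread, and that spread may be technical.

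Cells make cholesterol from acetyl-CoA through the mevalonate pathway, squalene and lanosterol, and they make fatty acids from the same precursor through malonyl-CoA. Both routes are under the sterol regulatory element-binding proteins (SREBPs), transcription factors that are held in the endoplasmic reticulum by SCAP and INSIG proteins when sterols are plentiful and are released and cut when sterols are scarce. The genes of the pathway are therefore known to move together when a cell's sterol supply changes. Proximal tubular cells are known for burning fatty acids as their main fuel, and cultured lines also make sterols and fatty acids for growth.

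SREBPs act through sterol regulatory elements, often beside CCAAT boxes (bound by NF-Y) and GC boxes (bound by Sp1). RefSeq promoter windows (GRCh38.p14, 250 bases before to 50 bases after each start) were matched for 28 of the 32 genes and searched on both strands. The motif TCACNCCAC was found in 1 of the 28 genes (SREBF2), against 1.39% of 27305 genes in the table. Its shorter core CACNCCAC, which every TCACNCCAC match also contains, was found in 6 of the 28 (IDI1, SC5D, INSIG1, SREBF2, ACACA and SCD), against 7.05% of all genes. The CCAAT box was found in 21 of 28, against 39.7%, and the GC box GGGCGG in 27 of 28, against 48.3%. Such matches describe letters in a window and show no binding.

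The following 5 stretches lie upstream of the first listed RefSeq start and of the GENCODE release 29 gene bound, and are written 5′ to 3′ on the gene's strand. The first 4 belong to genes that were far lower in control replicates 2 and 3 (HMGCS1, INSIG1, SCD) or that encode the sterol-responsive factor itself (SREBF2). INSIG2 belongs to a gene that was not. Capitals mark a CACNCCAC match or a CCAAT box that lies whole within the stretch, on either strand. Matches that run past a stretch or lie outside it are not marked. Among these are the CACNCCAC match of SCD and a further CCAAT box of HMGCS1. The stretches are HMGCS1 at chr5:43313513-43313662 (minus strand), INSIG1 at chr7:155297628-155297775, SCD at chr10:100346983-100347123, SREBF2 at chr22:41832855-41833078 and INSIG2 at chr2:118088221-118088451 (all 4 on the plus strand). None of the motifs in capitals was present in the INSIG2 stretch. This contrast did not hold across the searched windows. CYP51A1, FADS1, SREBF1 and ELOVL6 were low in control replicates 2 and 3 but had neither motif. Of the genes that were not low there, PMVK and SCAP also had neither, and FADS2 had a CCAAT box.
HMGCS1: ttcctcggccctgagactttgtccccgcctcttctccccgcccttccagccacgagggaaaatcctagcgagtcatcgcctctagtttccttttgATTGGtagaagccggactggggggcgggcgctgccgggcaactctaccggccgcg
INSIG1: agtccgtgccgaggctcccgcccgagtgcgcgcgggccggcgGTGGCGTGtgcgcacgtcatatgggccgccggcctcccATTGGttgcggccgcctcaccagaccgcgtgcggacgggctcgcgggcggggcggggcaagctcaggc
SCD: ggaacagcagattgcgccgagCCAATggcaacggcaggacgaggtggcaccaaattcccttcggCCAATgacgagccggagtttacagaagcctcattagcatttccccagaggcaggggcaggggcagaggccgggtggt
SREBF2: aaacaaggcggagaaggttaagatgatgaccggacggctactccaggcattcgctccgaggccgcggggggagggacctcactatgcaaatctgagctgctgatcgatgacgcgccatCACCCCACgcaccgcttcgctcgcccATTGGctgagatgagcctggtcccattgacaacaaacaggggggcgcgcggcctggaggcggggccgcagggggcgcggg
INSIG2: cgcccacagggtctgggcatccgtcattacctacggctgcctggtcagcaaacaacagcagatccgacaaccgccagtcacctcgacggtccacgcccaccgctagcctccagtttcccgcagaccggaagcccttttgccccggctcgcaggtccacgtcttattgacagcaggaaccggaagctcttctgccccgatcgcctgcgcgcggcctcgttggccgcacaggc

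Before any comparison, the libraries themselves have to be described. WNT1 (ENSG00000125084), the transfected gene, had 1, 2 and 0 counts in the libraries labelled Wnt1_KP6 and 0 counts in all 3 libraries labelled Wnt1 and all 3 labelled control. Its counts thus do not show the plasmid, and all groups are named here by their labels. Libraries held 21199078 to 27507623 expected counts, so that a count of 0 allows up to 0.109 to 0.142 CPM (counts scaled to library size), a limit that covers counting error only. Replicate 1 stood apart from replicates 2 and 3 in every group. The chi-square per degree of freedom over genes was 3.52 between Wnt1_KP6 replicate 1 and Wnt1 replicate 1, 3.34 between Wnt1_KP6 replicates 2 and 3, 3.11 between Wnt1 replicates 2 and 3 and 13.6 between control replicates 2 and 3. All other pairs lay between 39.4 and 147. Mitochondrial transcripts took 5.18% to 5.72% of counts in replicate 1 of the 3 groups and 7.01% to 7.97% in the other libraries.

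The epithelial label was checked against markers. Of 9 tubular epithelial markers 7 averaged at least 1 CPM, among them PAX8, KRT8 and KRT18, and CDH1 and PAX2 did not. Of 10 markers of the differentiated proximal tubule only MME and GGT1 did, while LRP2, CUBN, SLC34A1, SLC5A2, SLC22A6, AQP1, ANPEP and HNF4A stayed under 1 CPM. None of 4 endothelial markers reached 1 CPM, and of 4 leukocyte markers only CD68 did, with PTPRC and CD3E at 0 in every library. The 6 fibroblast markers summed to 17.61 to 22.92 CPM in Wnt1_KP6, 15.58 to 19.94 CPM in Wnt1 and 21.12 to 32.17 CPM in control libraries, most of it COL1A1. The highest sum was that of control replicate 1, which alone held more than 1 CPM of COL3A1 (3.45) and DCN (1.34). Whether this has a part in the position of control replicate 1 described next was not tested. In such bulk samples, fewer cells of a kind and less RNA per cell cannot be told apart.

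The 32 genes took 0.95%, 1.14% and 1.15% of all counts in Wnt1_KP6 replicates 1 to 3 and 0.955%, 1.07% and 1.1% in Wnt1 replicates 1 to 3, against 0.903%, 0.312% and 0.322% in control replicates 1 to 3. Control replicates 2 and 3 thus held a low share, and control replicate 1 lay just under the 6 Wnt1_KP6 and Wnt1 libraries. Gene by gene, control replicates 2 and 3 were both below all 7 other libraries for 28 of the 32 genes, a position that 14.2% of the 13153 tested genes also held. The other 4 were PMVK, SCAP, INSIG2 and FADS2. Control replicate 1 lay within the range of the 6 Wnt1_KP6 and Wnt1 libraries for 16 genes, below that range for 13 and above it for 3 (SQLE, SC5D and ELOVL6).

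**Figure D1:**
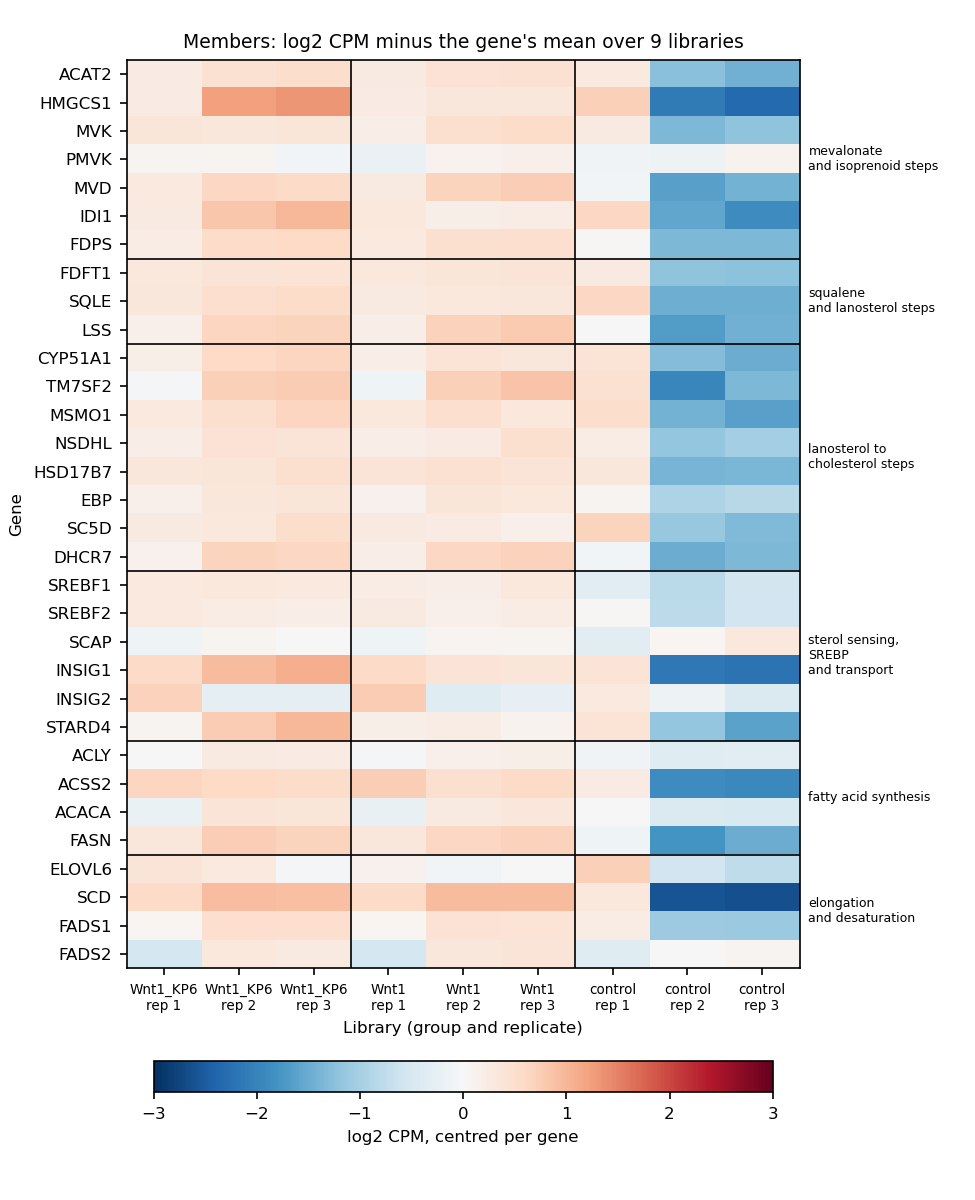
Heat map of log2 CPM of the 32 genes (rows, grouped by role) in the 9 libraries (columns), each gene centred on its mean over the libraries; red is above and blue below that mean. The blue block covers control replicates 2 and 3 and 28 of 32 genes. Control replicate 1 is closer to the Wnt1_KP6 and Wnt1 libraries for most of these genes, though it lies below all 6 of them for 13 of the 32.

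The difference between groups was tested with edgeR's quasi-likelihood test on all 9 libraries, adjusted with Benjamini-Hochberg over the 13153 genes tested, and a gene is called when its adjusted p is under 0.05. All 32 genes passed the filter on low counts. In Wnt1_KP6 vs control, 1 of 32 was called (SREBF1, higher), where 0.228% of all tested genes were called in either direction, and 31 of 32 had a log2 fold change above 0. The median log2 fold change over the 32 genes was 0.94, against -0.01 over all tested genes. In Wnt1 vs control, 0 of 32 were called, where 0.122% of all tested genes were, and 31 of 32 lay above 0, with a median of 0.83 against -0.00 over all tested genes. At an unadjusted p under 0.05 stood 20 of the 32 genes in Wnt1_KP6 vs control and 17 in Wnt1 vs control. Over all 13153 tested genes, 2076 and 1475 stood there. Both comparisons use the same 3 control libraries, so they are not independent of each other.

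In Wnt1_KP6 vs control, every Wnt1_KP6 library lay above every control library for 14 genes and below for 0, where 8.71% of tested genes were higher and 7.79% lower without overlap. For Wnt1 vs control this held for 13 genes above and 0 below, where 8.67% were higher and 7.87% lower. DESeq2 called 9 genes in Wnt1_KP6 vs control (MVD, FDPS, LSS, EBP, DHCR7, SREBF1, SREBF2, ACLY and FASN) and 6 in Wnt1 vs control (MVD, FDPS, LSS, DHCR7, SREBF1 and FASN), all higher, where it called 5.12% and 2.3% of all tested genes. It gave no adjusted p for HMGCS1 and SCD.

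The edgeR counts depend on whether control replicate 1 is included. Without it, edgeR called 26 of the 32 genes higher in Wnt1_KP6 vs control, where 5.38% of all tested genes were called higher, and 25 in Wnt1 vs control, where 3.9% were. The median log2 fold changes were then 1.76 and 1.70. In replicates 2 and 3 alone, 28 of 32 were called higher and 0 lower in both comparisons, with medians of 1.82 and 1.78. The background in that setting was high: 21.1% of tested genes were called higher and 19.5% lower in Wnt1_KP6 vs control, and 16.3% higher and 15.3% lower in Wnt1 vs control. These tests rest on 2 libraries per group, and the genes not called in either comparison were PMVK, SCAP, INSIG2 and ELOVL6. Within replicate 1, the median log2 ratio over the 32 genes was 0.06 for Wnt1_KP6 over control and 0.01 for Wnt1 over control.

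**Figure D2:**
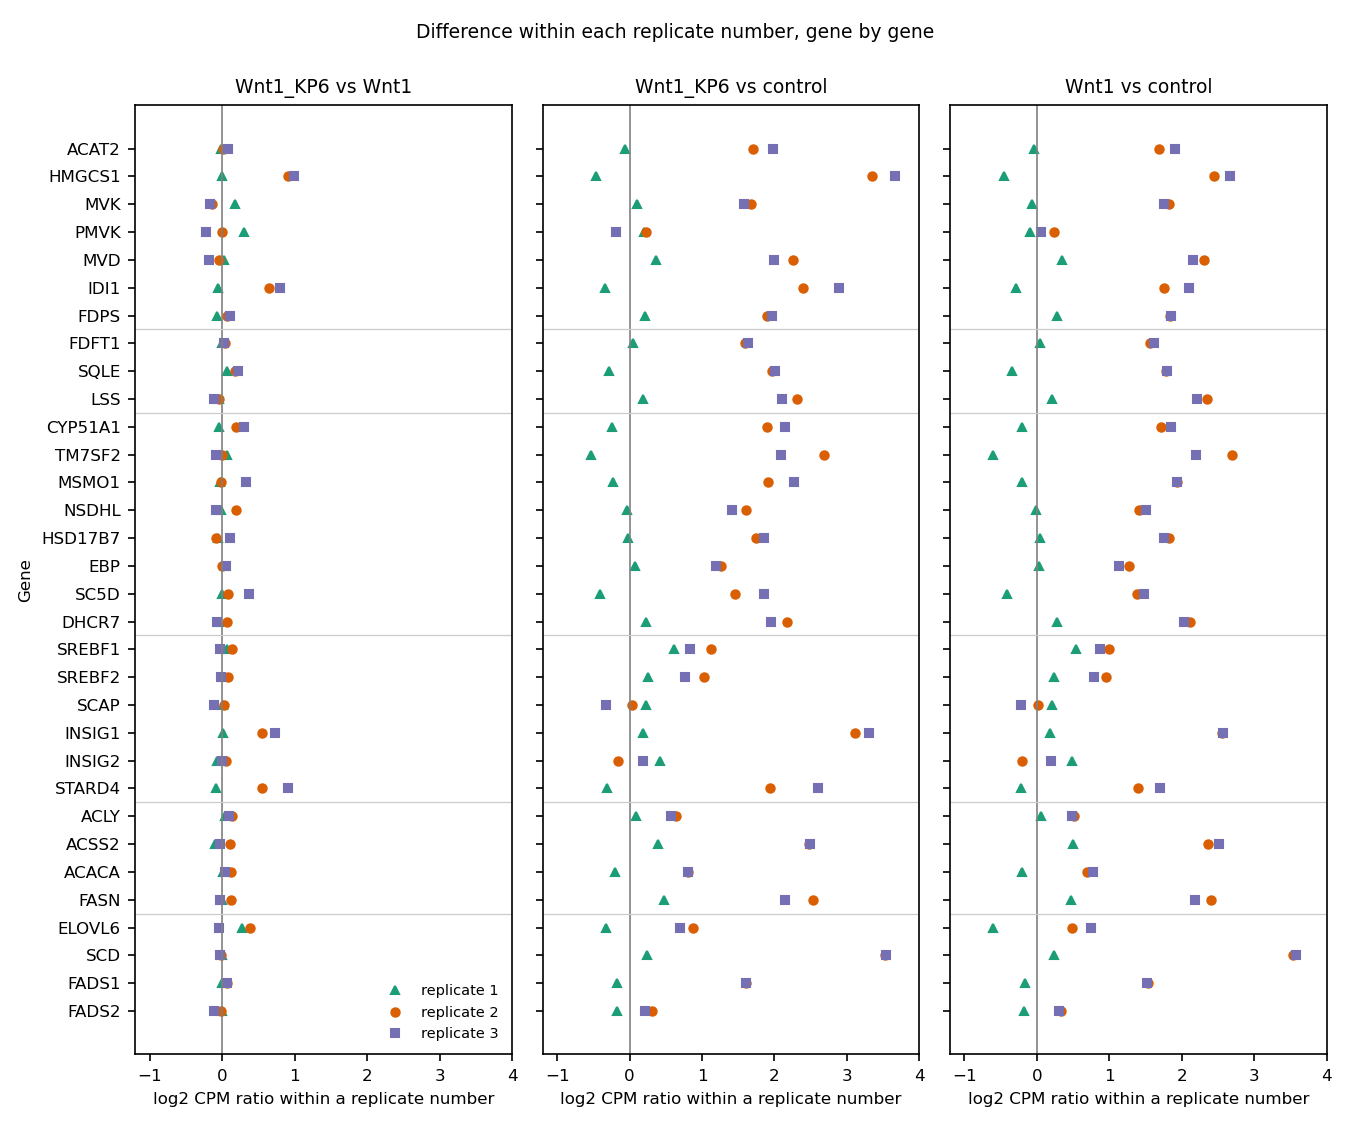
Log2 ratio of CPM (x axis) between libraries of the same replicate number for each of the 32 genes (y axis), in 3 panels, 1 for each comparison; triangles are replicate 1, circles replicate 2 and squares replicate 3. In both control comparisons replicate 1 lies near 0 while replicates 2 and 3 lie to the right for most genes, up to 3.66 for HMGCS1.

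Levels between genes were compared on the deposited FPKM, which are scaled to gene length. FDPS stood highest with a mean of 436.6 FPKM over the 9 libraries, then SCD (242.4), FASN (229.3), ACLY (216.3), HMGCS1 (181.9) and FDFT1 (177.1). In the Wnt1_KP6 group SCD (306.2 ± 28.5 FPKM, mean ± SD, n = 3) and FASN (288.8 ± 21 FPKM) overlapped between libraries, while every ACLY library (236.7 ± 18.2 FPKM) lay below every library of both. At the other end stood PMVK (11.03), INSIG2 (4.54) and ELOVL6 (0.291). The median over the 32 genes was 54.31 FPKM, against 10.36 over all tested genes, so most of these genes were among the more abundant ones in HKC-8.

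**Figure D3:**
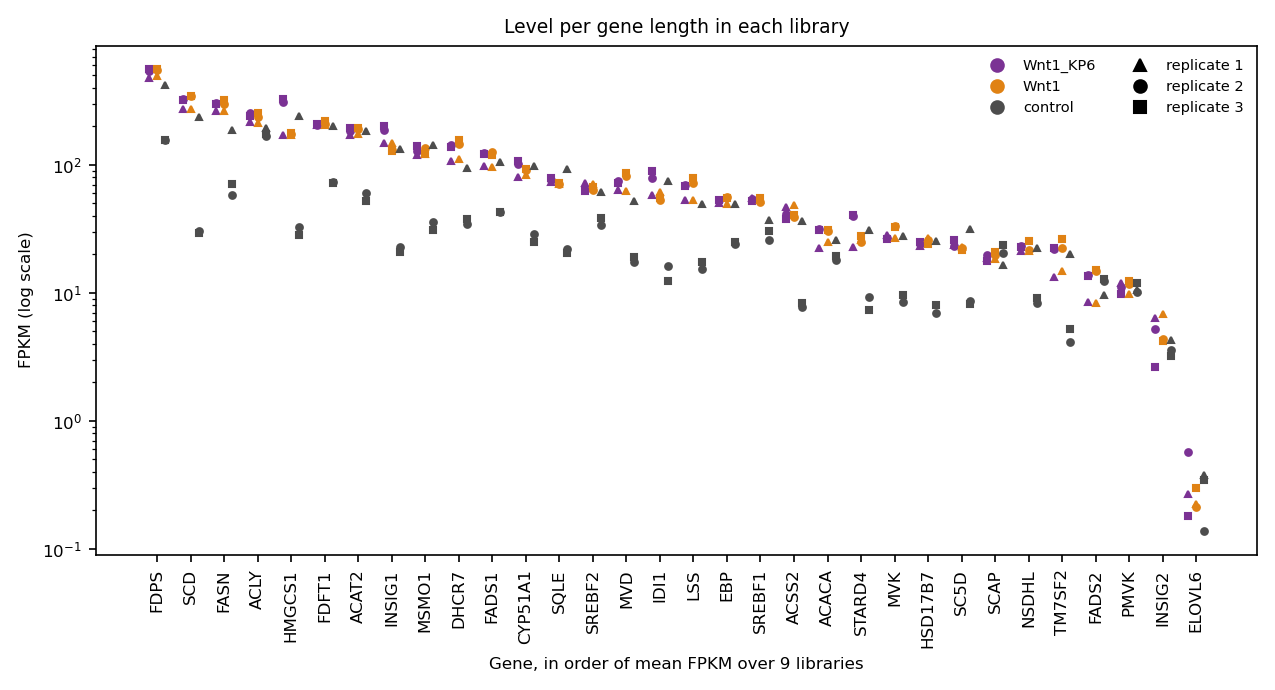
Deposited FPKM (y axis, log scale) of each of the 32 genes (x axis, ordered by mean over 9 libraries) in every library; colour gives the group and marker shape the replicate. The median gene of the 32 lies at 54.31 FPKM, and the genes run from FDPS (mean 436.6) on the left to ELOVL6 (mean 0.291) on the right.

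Among the enzymes of the mevalonate and isoprenoid steps, HMGCS1 (ENSG00000112972, chromosome 5, 43289395 to 43313512), which makes HMG-CoA, had the widest range. It had 592.2, 1167.0 and 1244.4 CPM in Wnt1_KP6 replicates 1 to 3 and 593.8, 627.2 and 625.5 CPM in Wnt1 replicates 1 to 3, against 818.5, 114.5 and 98.59 CPM in control replicates 1 to 3. Control replicate 1 was above all 3 Wnt1 libraries and Wnt1_KP6 replicate 1, and the other control replicates were far below every other library, so the groups overlapped. The log2 fold change over all libraries was 1.54 ± 0.75 (SE) for Wnt1_KP6 vs control (edgeR adjusted p = 0.366) and 0.84 ± 0.74 for Wnt1 vs control (edgeR adjusted p = 0.743). In replicates 2 and 3 alone HMGCS1 was 11.3-fold and 5.88-fold higher than control. Control replicate 1 itself held 7.68-fold the mean of control replicates 2 and 3.

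FDPS (ENSG00000160752), which makes farnesyl diphosphate, had 568.3, 709.1 and 733.5 CPM in Wnt1_KP6 and 596.4, 679.2 and 682.9 CPM in Wnt1, against 492.7, 190.2 and 188.9 CPM in control replicates 1 to 3. Here all 3 control libraries lay below the other 6. The log2 fold change was 1.21 ± 0.35 for Wnt1_KP6 vs control (edgeR adjusted p = 0.158) and 1.17 ± 0.35 for Wnt1 vs control (edgeR adjusted p = 0.272). ACAT2 (ENSG00000120437), the cytosolic thiolase of the first step, had 254.7, 294.4 and 312.7 CPM in Wnt1_KP6 and 258.6, 292.4 and 295.2 CPM in Wnt1, against 265.5, 90.4 and 79.31 CPM in control. Its control replicate 1 lay among the other libraries. The value of ACAT2 is uncertain, since 52.3% of its exon bases lie opposite exons of other genes (among them TCP1 and SOD2) and the library kit is not stated to keep strand.

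IDI1, the isomerase that interconverts the isoprene units, MVD, the decarboxylase that makes the first of them, and MVK, mevalonate kinase, were also low in control replicates 2 and 3. IDI1 had 145.2 to 242.1 CPM in Wnt1_KP6 and 136.7 to 151.0 CPM in Wnt1, against 184.0, 40.77 and 32.66 CPM in control replicates 1 to 3. PMVK (phosphomevalonate kinase), which acts between MVK and MVD, did not share this pattern: it had 10.46 to 11.72 CPM in Wnt1_KP6, 9.54 to 12.31 CPM in Wnt1 and 9.97 to 11.9 CPM in control. All 3 groups overlapped, and the log2 fold change in replicates 2 and 3 alone was 0.02 ± 0.13 for Wnt1_KP6 vs control and 0.14 ± 0.13 for Wnt1 vs control. Of the 7 genes of these steps, 6 were called higher in replicates 2 and 3 alone in each control comparison, where 21.1% (Wnt1_KP6) and 16.3% (Wnt1) of all tested genes were, and 0 over all libraries.

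The squalene and lanosterol steps are FDFT1 (squalene synthase), SQLE (squalene epoxidase) and LSS (lanosterol synthase). FDFT1 (ENSG00000079459) had 359.4, 381.2 and 386.8 CPM in Wnt1_KP6 and 361.1, 371.6 and 380.5 CPM in Wnt1, against 350.0, 126.3 and 123.7 CPM in control. SQLE (ENSG00000104549) had 210.7, 236.3 and 243.2 CPM in Wnt1_KP6 and 202.8, 208.2 and 210.8 CPM in Wnt1, against 257.1, 60.63 and 60.39 CPM in control. Control replicate 1 was thus just below the other 6 libraries for FDFT1 and above all of them for SQLE. LSS (ENSG00000160285) had 187.8, 263.4 and 266.3 CPM in Wnt1_KP6 and 192.6, 270.2 and 288.7 CPM in Wnt1, against 166.3, 53.08 and 62.2 CPM in control. LSS was also lower in replicate 1 than in replicates 2 and 3 of the Wnt1_KP6 and Wnt1 groups, a step that FDFT1 showed only slightly. For LSS the log2 fold change was 1.35 ± 0.41 in Wnt1_KP6 vs control (edgeR adjusted p = 0.172) and 1.42 ± 0.41 in Wnt1 vs control (edgeR adjusted p = 0.271). In replicates 2 and 3 alone all 3 genes were called higher in both comparisons, by 3.01-fold to 4.85-fold, beside the same 21.1% and 16.3% of all tested genes.

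From lanosterol to cholesterol run 8 of the genes. DHCR7 (ENSG00000172893), the reductase that forms cholesterol from 7-dehydrocholesterol, had 267.0, 387.3 and 370.7 CPM in Wnt1_KP6 and 277.2, 371.2 and 392.4 CPM in Wnt1, against 228.6, 86.22 and 96.09 CPM in control. MSMO1 (ENSG00000052802), the C4-methyl sterol oxidase, had 249.5, 284.7 and 317.2 CPM in Wnt1_KP6 and 254.2, 289.7 and 253.0 CPM in Wnt1, against 293.2, 75.96 and 65.93 CPM in control. For DHCR7 all control libraries lay below the Wnt1_KP6 and Wnt1 libraries. For MSMO1, in contrast, control replicate 1 was the second highest of the control and Wnt1_KP6 libraries. CYP51A1 (ENSG00000001630), lanosterol 14-alpha-demethylase, had 218.4, 294.1 and 304.9 CPM in Wnt1_KP6 and 224.0, 257.1 and 247.5 CPM in Wnt1, against 258.7, 78.71 and 68.78 CPM in control. The CYP51A1 value is uncertain, since 79.4% of its exon bases are shared on the same strand with overlapping annotated genes.

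All 8 genes of these steps were called higher in replicates 2 and 3 alone in both control comparisons, where 21.1% (Wnt1_KP6) and 16.3% (Wnt1) of all tested genes were. Their fitted log2 fold changes ran from 1.22 (EBP, the sterol isomerase) to 2.35 (TM7SF2, a sterol reductase) in Wnt1_KP6 vs control, and from 1.21 to 2.41 for the same pair of genes in Wnt1 vs control. NSDHL and HSD17B7, which act with MSMO1 in removing the C4 methyl groups, lay at 1.50 and 1.80 in Wnt1_KP6 vs control. Over all libraries 0 of the 8 were called, with DHCR7 at 1.32 ± 0.36 for Wnt1_KP6 vs control (edgeR adjusted p = 0.145). SC5D, the lathosterol oxidase, had its highest level of all in control replicate 1 (81.03 CPM, against 56.9 to 73.56 CPM in the 6 Wnt1_KP6 and Wnt1 libraries).

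Among the genes of sterol sensing, SREBF1 (ENSG00000072310, chromosome 17, 17810399 to 17837002), which encodes SREBP-1, the SREBP best known for fatty acid synthesis, was the gene called over all libraries. It had 215.9, 220.7 and 214.8 CPM in Wnt1_KP6 and 205.5, 201.9 and 220.0 CPM in Wnt1, against 141.8, 100.8 and 120.5 CPM in control. All 3 control libraries, replicate 1 included, were below the other 6. SREBF1 rose by a log2 fold change of 0.84 ± 0.12 in Wnt1_KP6 vs control (edgeR adjusted p = 0.0383). Between libraries of the same replicate number the log2 ratio was 0.61, 1.13 and 0.83 in replicates 1 to 3. The labels do not say what a number shares. In Wnt1 vs control the log2 fold change of SREBF1 was 0.79 ± 0.12 (edgeR adjusted p = 0.0663). With the replicate number as a block SREBF1 was called there (edgeR adjusted p = 0.0325), where 95 genes in all were called in place of 16. The call in Wnt1_KP6 vs control was lost without Wnt1_KP6 replicate 2 (edgeR adjusted p = 0.264) or 3 (0.19), Wnt1 replicate 2 (0.109) or 3 (0.114), or control replicate 2 (0.227) or 3 (0.153). Over all alternatives tried its adjusted p ran from 2.32e-07 (DESeq2) to 0.264.

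SREBF2 (ENSG00000198911), which encodes SREBP-2, the SREBP best known for sterol synthesis, had 368.8, 356.0 and 345.9 CPM in Wnt1_KP6 and 364.0, 336.6 and 350.4 CPM in Wnt1, against 309.5, 174.6 and 202.2 CPM in control. INSIG1 (ENSG00000186480), an SREBP target whose protein retains SCAP in the endoplasmic reticulum, had 353.2, 457.5 and 500.6 CPM in Wnt1_KP6 and 351.7, 312.7 and 302.1 CPM in Wnt1, against 311.2, 53.01 and 50.84 CPM in control. For both genes the Wnt1_KP6 libraries lay above the control ones. For INSIG1 control replicate 1 lay within the Wnt1 range, and in replicates 2 and 3 alone it was 9.21-fold higher in Wnt1_KP6 and 5.92-fold higher in Wnt1 than in control. STARD4, a carrier of cholesterol within the cell, had 77.05, 123.6 and 145.2 CPM in Wnt1_KP6 and 82.02, 84.25 and 77.63 CPM in Wnt1, against 95.49, 32.22 and 23.88 CPM in control.

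SCAP, the escort of the SREBPs, and INSIG2, the INSIG that is not known as a strong SREBP target, did not share the pattern. SCAP had 69.4 to 80.71 CPM in Wnt1_KP6 and 68.72 to 80.8 CPM in Wnt1, against 59.47, 79 and 94.01 CPM in control replicates 1 to 3, so that control replicate 3 was the highest library. INSIG2 had 19.48, 9.73 and 10.01 CPM in Wnt1_KP6 and 20.47, 9.4 and 10.09 CPM in Wnt1, against 14.6, 10.85 and 8.82 CPM in control. INSIG2 was thus higher in replicate 1 of all 3 groups than in replicates 2 and 3, and its groups overlapped.

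**Figure D4:**
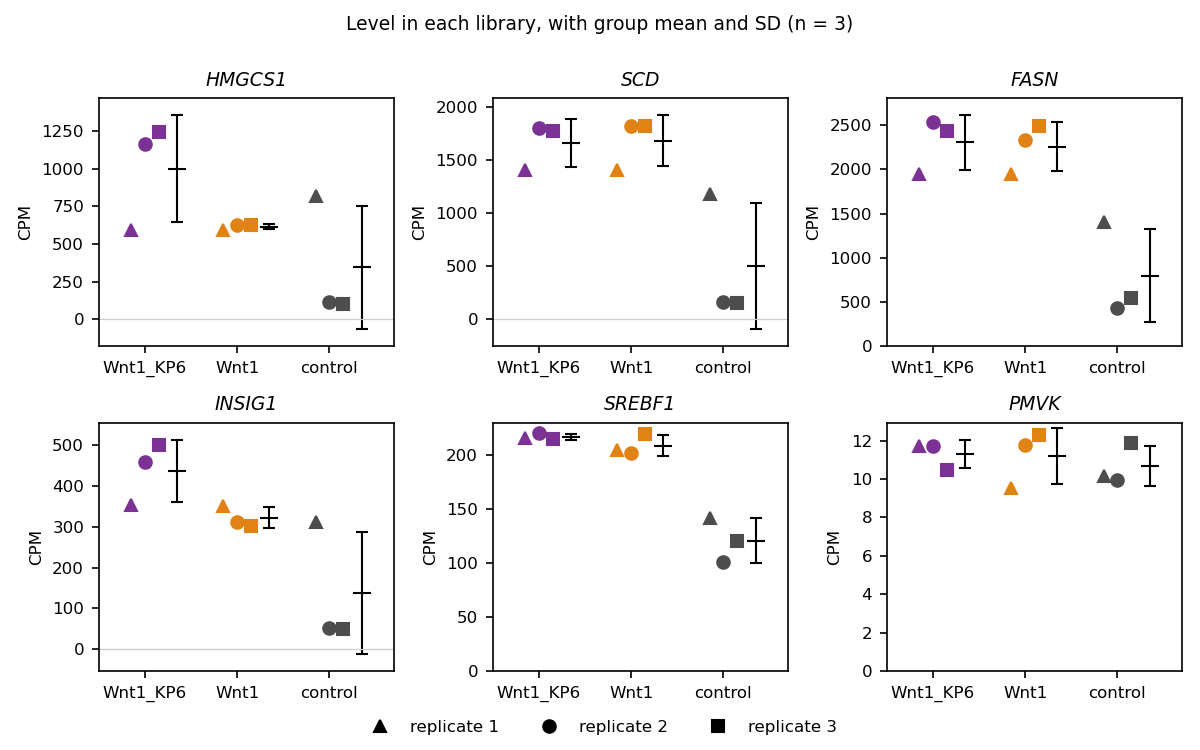
CPM (y axis) of 6 of the genes in the 9 libraries by group (x axis); markers give replicate 1, 2 and 3, and the black bar beside them the group mean ± SD (n = 3). For HMGCS1, SCD and INSIG1 control replicate 1 lies several-fold above control replicates 2 and 3, so the control SD bar reaches below 0; SREBF1 has all 3 control libraries below the others, and PMVK has 9.54 to 12.31 CPM throughout.

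The genes of fatty acid synthesis make acetyl-CoA (ACLY from citrate, ACSS2 from acetate), malonyl-CoA (ACACA) and palmitate (FASN). FASN (ENSG00000169710) had 1947.8, 2530.5 and 2435.6 CPM in Wnt1_KP6 and 1944.6, 2331.5 and 2483.2 CPM in Wnt1, against 1399.2, 438.4 and 548.4 CPM in control. All control libraries lay below the 6 Wnt1_KP6 and Wnt1 libraries, and control replicate 1 stood between those 6 and the other control libraries. The log2 fold change was 1.53 ± 0.39 for Wnt1_KP6 vs control (edgeR adjusted p = 0.129) and 1.50 ± 0.39 for Wnt1 vs control (edgeR adjusted p = 0.217), and 2.33 ± 0.09 and 2.29 ± 0.09 in replicates 2 and 3 alone.

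ACLY (ENSG00000131473) had 780.7, 946.5 and 932.8 CPM in Wnt1_KP6 and 761.3, 864.8 and 878.0 CPM in Wnt1, against 731.3, 606.2 and 629.2 CPM in control. ACACA (ENSG00000278540) had 165.6, 249.0 and 245.1 CPM in Wnt1_KP6 and 164.3, 229.7 and 240.8 CPM in Wnt1, against 189.9, 142.2 and 140.7 CPM in control. Both had smaller differences than FASN, with 1.52-fold for ACLY and 1.74-fold for ACACA in Wnt1_KP6 vs control in replicates 2 and 3 alone. ACLY was also called in Wnt1_KP6 vs control when Wnt1_KP6 replicate 1 was left out (0.52 ± 0.12, edgeR adjusted p = 0.0398). In that setting 692 genes in all were called in place of 30. ACLY was likewise among the 26 of the 32 genes called higher without control replicate 1, where 5.38% of all tested genes were. ACSS2 differed more, with 99.21 to 105.9 CPM in Wnt1_KP6 and 94.46 to 113.9 CPM in Wnt1, against 80.75, 18.37 and 17.68 CPM in control replicates 1 to 3.

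In elongation and desaturation, SCD (ENSG00000099194, chromosome 10, 100347124 to 100364834), which makes oleate from stearate, had 1403.4, 1805.8 and 1778.6 CPM in Wnt1_KP6 and 1403.4, 1825.3 and 1818.8 CPM in Wnt1, against 1184.5, 157.8 and 152.4 CPM in control. All control libraries lay below the others, replicate 1 only slightly. The log2 fold change was 1.74 ± 0.72 for Wnt1_KP6 vs control (edgeR adjusted p = 0.295) and 1.76 ± 0.72 for Wnt1 vs control (edgeR adjusted p = 0.413). In replicates 2 and 3 alone it was 3.53 ± 0.06 and 3.56 ± 0.06, or 11.5-fold and 11.8-fold. The log2 ratio within replicate 1 was 0.24 in both comparisons.

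The desaturases FADS1 and FADS2, which make polyunsaturated fatty acids and whose annotated bounds overlap on opposite strands of chromosome 11, are given side by side. FADS1 (ENSG00000149485) had 357.7, 492.0 and 486.1 CPM in Wnt1_KP6 and 358.8, 470.3 and 461.8 CPM in Wnt1, against 403.4, 162.8 and 160.6 CPM in control. FADS2 (ENSG00000134824) had 20.84, 37.82 and 36.73 CPM in Wnt1_KP6 and 20.9, 38.28 and 39.59 CPM in Wnt1, against 23.6, 30.54 and 31.85 CPM in control. FADS2 was low in replicate 1 of every group, and its difference in replicates 2 and 3 alone (0.26 ± 0.08 for Wnt1_KP6 vs control, edgeR adjusted p = 0.0235) was small beside 1.60 ± 0.06 for FADS1. ELOVL6, the elongase of palmitate, had only 0.77 to 2.15 CPM over the 9 libraries and was called in no setting.

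The comparison of Wnt1_KP6 with Wnt1 asks what KP6 changed in cells with the Wnt1 plasmid. Over all 9 libraries edgeR called 0 of the 32 genes, where 0% of the 13153 tested genes were called, and all 32 had an edgeR adjusted p of 1. At an unadjusted p under 0.05 stood 0 of the 32 and 363 of all tested genes. The fit shares its estimate of spread over all 3 groups, so the control libraries also shape these p-values and SE. Without control replicate 1, the SE of this comparison fell from 0.50 to 0.08 for SQLE and from 0.74 to 0.25 for HMGCS1. For FADS2 it stayed at 0.29, and 0 of the 32 genes were called in that setting. DESeq2 also called 0 of the 32, where it called 0.152% of all tested genes. The median log2 fold change was 0.03, with 21 genes above 0 and 11 below, against 0.00 over all tested genes. INSIG1 was the 1 gene whose Wnt1_KP6 libraries all lay above the Wnt1 ones, by a narrow margin in replicate 1 (353.2 CPM in Wnt1_KP6 replicate 1, against 351.7 CPM in Wnt1 replicate 1). Among all tested genes 2.87% were higher and 2.93% lower without overlap.

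In replicates 2 and 3 alone, 5 of the 32 genes were called higher in Wnt1_KP6 and 0 lower, where 6.06% of tested genes were called higher and 2.56% lower. They were HMGCS1, IDI1, STARD4, INSIG1 and CYP51A1. HMGCS1 differed most, by a log2 fold change of 0.94 ± 0.07 (edgeR adjusted p = 2.45e-07), followed by STARD4 (0.73 ± 0.11, edgeR adjusted p = 0.000591), IDI1 (0.72 ± 0.09, 7.82e-05) and INSIG1 (0.64 ± 0.06, 6.87e-06). CYP51A1 differed little (0.24 ± 0.07, edgeR adjusted p = 0.0409). The other 27 lay between -0.16 (MVK) and 0.23 (SC5D). FASN (0.04 ± 0.08) and SCD (-0.03 ± 0.05), which stood among the genes furthest from control, were not called, nor were the other 6 of the 32 genes that act in fatty acid synthesis, elongation or desaturation.

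In replicate 1 the log2 ratios of Wnt1_KP6 over Wnt1 for these 5 genes lay between -0.09 (STARD4) and 0.01 (INSIG1). For HMGCS1, Wnt1_KP6 replicates 2 and 3 (1167.0 and 1244.4 CPM) were above all other libraries, while Wnt1_KP6 replicate 1 (592.2 CPM) stood beside the 3 Wnt1 libraries (593.8 to 627.2 CPM). The result thus rests on 2 libraries per group, and whether KP6 or another difference between those libraries goes with it cannot be told apart.

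**Figure D5:**
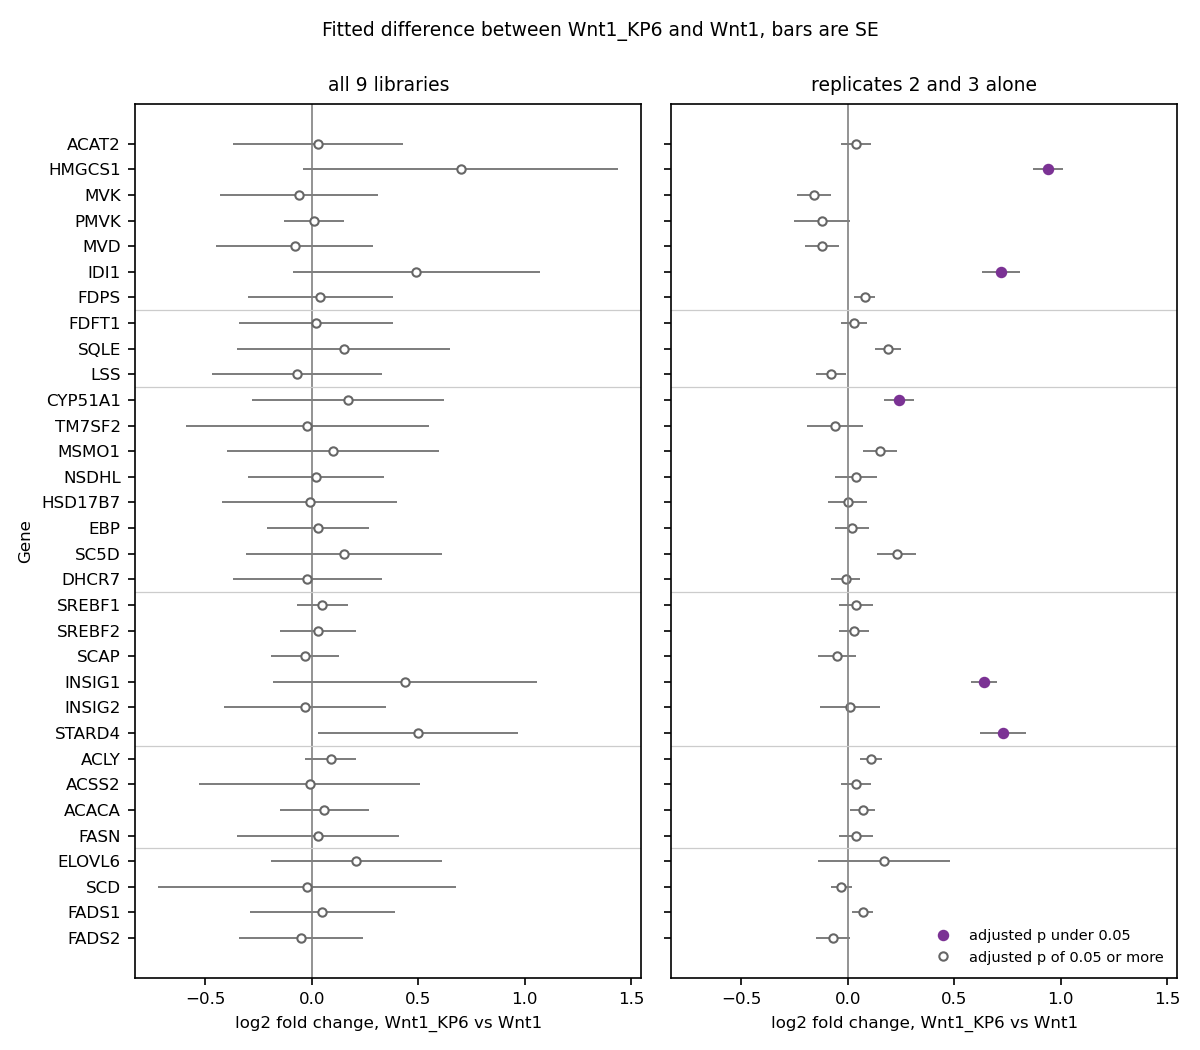
Fitted log2 fold change of Wnt1_KP6 vs Wnt1 with its SE (x axis) for the 32 genes (y axis), over all 9 libraries (left) and in replicates 2 and 3 alone (right); filled points have an adjusted p under 0.05. The wide bars on the left all reach near 0, and on the right 5 points are filled, led by HMGCS1 at 0.94. The bars come from fits that also hold control libraries, so they are not the spread of Wnt1_KP6 and Wnt1 alone.

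Other genes of the pathway were described from 5 lists, of which edgeR called 0 genes in any comparison over all libraries. Of 14 tested genes of sterol uptake, trafficking and other known SREBP targets, 9 were called higher and 0 lower in replicates 2 and 3 alone in both control comparisons. Over all tested genes that setting gave 21.1% higher and 19.5% lower in Wnt1_KP6 vs control, and 16.3% higher and 15.3% lower in Wnt1 vs control, and the list counts that follow stand beside the same shares. Among them, LPIN1, a phosphatidate phosphatase, had 190.8, 200.5 and 199.3 CPM in Wnt1_KP6 and 192.1, 228.0 and 227.8 CPM in Wnt1, against 179.2, 60.6 and 54.3 CPM in control. NPC1, which exports cholesterol from lysosomes, had 250.6, 321.7 and 311.0 CPM in Wnt1_KP6 and 273.7, 222.6 and 213.9 CPM in Wnt1, against 172.8, 115.8 and 117.5 CPM in control, with all control libraries lowest.

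Genes that branch off the isoprenoid steps, such as GGPS1 (geranylgeranyl diphosphate synthase), did not follow: 0 of 9 tested were called in any comparison, also in replicates 2 and 3 alone, where their medians were 0.01 for Wnt1_KP6 vs control and 0.05 for Wnt1 vs control. Of 10 genes of SREBP processing and sterol-regulated degradation, 2 were higher and 3 lower in Wnt1_KP6 vs control and 2 higher and 4 lower in Wnt1 vs control in that setting. The calls higher are near the share over all tested genes (21.1% and 16.3%), so they are no result about that list. The calls lower lie above the share over all tested genes (19.5% and 15.3%), on only 10 genes, and the list was not tested as a set. MBTPS1, the first protease that cuts SREBPs, had 162.6 to 164.9 CPM in Wnt1_KP6 and 162.2 to 166.8 CPM in Wnt1, against 162.3 to 174.4 CPM in control. Of 8 tested genes of LXR and sterol efflux, 5 were higher and 0 lower in both control comparisons in replicates 2 and 3 alone, where 21.1% and 16.3% of all tested genes were higher. ABCA1, the cholesterol exporter, had 381.3 to 442.2 CPM in Wnt1_KP6 and 431.9 to 446.8 CPM in Wnt1, against 208.6, 348.7 and 324.9 CPM in control replicates 1 to 3, so that for this gene control replicate 1 was the lowest library.

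The remaining list holds other genes of fatty acid synthesis, elongation and activation. Of 27 tested, 12 were higher and 5 lower in Wnt1_KP6 vs control, and 11 higher and 4 lower in Wnt1 vs control, in replicates 2 and 3 alone. The calls lower are near the share over all tested genes (19.5% and 15.3%). PNPLA3, a lipid droplet protein, had 27.21 to 28.15 CPM in Wnt1_KP6 and 26.39 to 34.37 CPM in Wnt1, against 28.17, 8.72 and 10.78 CPM in control replicates 1 to 3. GPAM, which starts glycerolipid synthesis, went the other way, with 14.17 to 18.96 CPM in Wnt1_KP6 and 18.69 to 21.42 CPM in Wnt1, against 22.3, 28.3 and 24.26 CPM in control.

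In Wnt1_KP6 vs Wnt1, replicates 2 and 3 alone gave 3 genes higher and 1 lower over the 5 lists. The lists held 10, 14, 8, 9 and 27 tested genes, and 6.06% of all tested genes were higher and 2.56% lower. Taken over the 5 lists together, the counts are not above these shares. No single list had more than 1 gene higher or 1 lower, so they are no result about the lists. NPC1 was higher (0.53 ± 0.06, edgeR adjusted p = 2.68e-05), as were RNF139, a ubiquitin ligase (0.53 ± 0.10, edgeR adjusted p = 0.0021), and ELOVL5, an elongase of polyunsaturated fatty acids (0.33 ± 0.06, edgeR adjusted p = 0.00314). GPAM was lower (-0.47 ± 0.12, edgeR adjusted p = 0.0202). The lists of LXR and sterol efflux and of isoprenoid branches had 0 calls in this comparison.

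The 32 genes also varied together across single libraries. Pearson's r between a gene's log2 CPM and the mean of the other 31 over the 9 libraries was 0.82 to 1.00 for 27 genes, 0.73 for ELOVL6, 0.20 for INSIG2, 0.12 for PMVK, 0.07 for FADS2 and -0.46 for SCAP. These points share the same 9 libraries, and the 2 low control libraries carry most of the spread. Among 10574 other tested genes with a mean of at least 5 CPM, the 8 most alike in pattern were UGDH (0.996), MMAB (0.993), LMTK2 (0.991), SLC16A13 (0.991), CLCN6 (0.990), ASAP2 (0.988), FOXJ3 (0.987) and SLCO4C1 (0.987). UGDH, which makes UDP-glucuronate, had 225.6, 274.5 and 268.7 CPM in Wnt1_KP6 and 226.8, 269.7 and 249.9 CPM in Wnt1, against 231.2, 109.0 and 102.3 CPM in control. MMAB belongs to the list of other SREBP targets above.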

How the data were processed

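Polyadenylated RNA of 9 HKC-8 libraries was sequenced, per the labels' protocols. The submitters' processing notes name fastp 0.18.0, Bowtie2 2.2.8, HISAT2, StringTie 1.3.1, RSEM and hg38, with no roles. The authors deposited estimated counts per gene (expected counts, 83.2% of those above 0 whole) and FPKM, per the file headers. The kit is not stated to keep strand. Expected counts were rounded and tested with edgeR 4.0.16 (limma 3.58.1, R 4.3.3): TMM scaling, filterByExpr (minimum count 10, minimum total 15), robust quasi-likelihood F test, two-sided, 3 group means over 9 libraries, Benjamini-Hochberg adjustment, threshold 0.05. The script was tested on simulated data in which no replicate was set apart from the others. That test does not cover replicates that stand apart, as they do here. CPM are expected counts divided by the tested genes' total times the TMM factor, scaled to 1000000. SE is the log2 fold change over the square root of F. Libraries held 21199078 to 27507623 counts.

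Alternatives were DESeq2 1.42.0, its size factors in edgeR, no filter, a replicate block, replicates 2 and 3 alone, and leaving out each library. As a check of pairing, deviations from group means correlated between libraries of the same replicate number at 0.47 to 0.69 for Wnt1_KP6 with Wnt1 and 0.24 to 0.33 for Wnt1 with control, and at 0.09 to 0.30 for Wnt1_KP6 with control. The labels do not say what a number shares. Coordinates are from GENCODE release 29 (GRCh38). All 9 library values are given for genes called over all libraries and for the 3 of each role group with the highest mean CPM; other genes given in full were chosen after their values were seen. The 8 most alike genes were ranked by Pearson's r over the 9 libraries. The genes and lists were chosen with earlier results of these data known.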

Additional observations from a re-analysis of the deposited data

How the results depend on the processing

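No alternative reversed the direction of a called value. Genes called in Wnt1_KP6 vs Wnt1 numbered 0 over all libraries, 20 with DESeq2 and 1124 in replicates 2 and 3 alone, where 5 of the 32 genes were called. In Wnt1_KP6 vs control they numbered 30, against 674 with DESeq2, 149 with the replicate block and 5293 in replicates 2 and 3 alone, with 9 of the 32 genes called by DESeq2 and 28 in replicates 2 and 3 alone. In Wnt1 vs control they numbered 16, against 302 with DESeq2, 95 with the replicate block and 4115 in replicates 2 and 3 alone, with 6 of the 32 called by DESeq2, 1 with the block (SREBF1, adjusted p = 0.0325) and 28 in replicates 2 and 3 alone. The median log2 fold change over the 32 genes in replicates 2 and 3 alone was 1.82 in Wnt1_KP6 vs control and 1.78 in Wnt1 vs control. Leaving out 1 library at a time gave 0 to 214, 0 to 1198 and 0 to 879 genes called in Wnt1_KP6 vs Wnt1, Wnt1_KP6 vs control and Wnt1 vs control, and 0 to 0, 0 to 26 and 0 to 25 of the 32 genes. The medians over the 32 genes then ran from -0.02 to 0.12, 0.67 to 1.76 and 0.58 to 1.70. The highest counts against control came without control replicate 1, and the 214 came without Wnt1_KP6 replicate 1. The cause was not tested. In Wnt1_KP6 vs control 1 same-number pair correlated at 0.09 only, so numbers were not taken as pairs there, and not every library correlated best with its own number. The block changed no call among the 32 genes other than that of SREBF1 in Wnt1 vs control. Over all libraries the SE of HMGCS1 was 0.75 in Wnt1_KP6 vs control, against 0.08 in replicates 2 and 3 alone.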
